A study of Homo sapiens with 8 samples.

Results

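The MYC family and MAX network was described here through 10 genes. The activators are MYC, MYCN and MYCL, with their partner MAX and its relative MLX. The repressor-type partners of MAX are MXD1, MXD3, MXD4, MXI1 and MNT. All 10 were chosen by name, with earlier results of these data known. They are 10 of 45961 gene numbers in the deposited table, and 10 of 10 passed the filter that left 12449 genes for testing (an average over the 8 libraries of 1 FPKM or more and a name that belongs to the gene number). FPKM counts fragments for each kilobase of a transcript and scales them by the fragments mapped in that library. The libraries hold polyA RNA of H9, an established line of human embryonic stem cells. By their titles they form 4 groups of 2. D1_Co has replicates 2 and 3, D2_Co 1 and 3, D3_Co 1 and 2, and D3_Control 2 and 3, with Co read as co-culture on days 1, 2 and 3 and Control as separate culture on day 3. By its title the series concerns competition between cells of distant species in chimeras. The labels do not name the partner cells, and they describe culture on Matrigel in mTeSR1 or on inactivated mouse embryonic fibroblasts in a medium with FGF2 and IWR1 without saying which library had which. Nothing states that the 2 libraries of a group are of different cultures, and the p-values therefore cover the spread between libraries only.

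MYC proteins are basic helix-loop-helix leucine zipper factors that pair with MAX, bind the E-box CACGTG and activate genes of growth, nucleotide synthesis and ribosome production. MXD proteins and MNT pair with the same MAX, bind the same sites and recruit SIN3 and histone deacetylases, so that the balance between the 2 arms is set by competition for MAX. MLX pairs with MNT, with some MXD proteins and with MLXIP (MondoA) and MLXIPL (ChREBP), which respond to glucose. In human embryonic stem cells MYC and MYCN are both linked to self-renewal, and MYCN also drives neural progenitors and neuroblastoma.

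Sequences upstream of 9 members, all but MYC, were in the RefSeq table used (GRCh38.p14). Because the network binds CACGTG, the 250 bases before each start were searched for these letters, which read the same on both strands. They stood in 3 of 9 members, against 6.49% of 27305 promoters and 8.99% of the 9889 promoters of tested genes. The E-boxes are shown in capitals within 30 bases on the strand of the gene, for MXD4 (chr4:2262330-2262359, minus), MNT (chr17:2401236-2401265, minus) and MLX (chr17:42567038-42567067, plus).
MXD4: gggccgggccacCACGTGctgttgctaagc
MNT: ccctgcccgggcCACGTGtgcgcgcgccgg
MLX: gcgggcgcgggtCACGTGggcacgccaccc
The E-box began 238, 193 and 50 bases before the RefSeq start of MXD4, MNT and MLX. The variant CACGCG, searched on both strands, stood in 0 of 9 members, against 9.62% of all promoters and 15.9% of those of tested genes. MYCN, the member with the largest difference on day 3, is shown with its 250 bases before the start (chr2:15940300-15940549, plus), where capitals mark TTTGGCGC, 1 spelling of the site of E2F factors.
MYCN: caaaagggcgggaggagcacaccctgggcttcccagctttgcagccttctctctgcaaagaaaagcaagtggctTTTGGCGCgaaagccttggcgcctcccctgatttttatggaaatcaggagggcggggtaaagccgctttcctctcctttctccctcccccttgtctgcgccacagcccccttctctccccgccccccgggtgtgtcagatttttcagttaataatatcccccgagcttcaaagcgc
TTTGGCGC or its reverse complement GCGCCAAA stood in 1 of 9 members, against 0.553% of all promoters and 0.940% of those of tested genes. Counts of 3, 0 or 1 of 9 members are too small to be read as more than the shares beside them. A match of letters is not a measured binding site.

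In GENCODE 29 on GRCh38, MYC lies at chr8:127735434-127741434 and MYCN at chr2:15940564-15947007, both on the plus strand, and MYCL at chr1:39895426-39902256 on the minus strand. MAX lies at chr14:65006174-65102695 (minus) and MLX at chr17:42567068-42573239 (plus). MXD1 lies at chr2:69897688-69942945 (plus), MXD3 at chr5:177301461-177312757 (minus), MXD4 at chr4:2247432-2262294 (minus), MXI1 at chr10:110207605-110287365 (plus) and MNT at chr17:2384060-2401118 (minus). Values are per gene, so exons and isoforms cannot be told apart. Exons of each member other than MYC overlap another annotated gene, such as the antisense MYCNOS for MYCN, SNRNP27 for MXD1 and PSMC3IP for MLX. Strand-specific counting is not stated, so reads of such neighbours cannot be told apart from those of the members. MYCNOS itself had 1.21 and 1.45 FPKM in D3_Co, against 2.08 and 2.99 FPKM in D3_Control.

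The sum of FPKM was 421825 to 440675 in each library, and read depth is unknown. Many values stood on the wrong row of the deposited table and were returned to their genes before testing. MYC, MYCN, MYCL and MXD3 kept their deposited values in every library, while values moved for MXD1, MAX and MLX, and the row of MXI1 was not settled. The labelled cell type was checked by its markers, and 16 of 16 pluripotent markers were above 1 FPKM in all 8 libraries, with sums of 2864 and 2795 FPKM in D3_Co and 3403 and 3319 FPKM in D3_Control. The 16 fibroblast markers summed to 1226 and 1256 FPKM in D3_Co, against 864 and 746 FPKM in D3_Control, and VIM held most of each sum. Of the 9 that were tested, 5 rose in D3_Co against D3_Control and 0 fell (limma adjusted p under 0.05), where 13.5% of all genes rose and 10.8% fell. Of the 16, 3 or 4 were at 0 in each day 3 library. In bulk RNA, fewer cells of a type and less RNA per cell cannot be told apart. The labels do not say how human cells were separated from others. Reads of partner cells or mouse fibroblasts that align to human genes therefore cannot be told apart from those of H9.

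By group means, MYC was the most abundant transcript of the network in the 3 co-culture groups and MYCN in D3_Control. In D3_Control replicate 2 the 2 were level, with 25.83 FPKM for MYC and 25.81 FPKM for MYCN. Per length, MXD3, MLX and MAX each averaged between 16.3 and 23.3 FPKM in every group. MXD4 and MNT averaged 7.71 to 12.9 FPKM. MYCL, MXI1 and MXD1 were low, and none of their group means exceeded 3.96 FPKM. Called genes are those with limma adjusted p under 0.05 over all 12449 genes. Of the 10 members, 3 were called in D3_Co against D3_Control, a comparison that called 24.3% of all genes. 5 members were called in D1_Co against D3_Control (22.8% of all genes) and 3 in D2_Co against D3_Control (25.1%). MXD1 was among the called members in all 3 comparisons with D3_Control, and it passed the filter only through the co-culture libraries. Leaving it aside, 1 of 9 members rose and 1 fell in D3_Co against D3_Control. Between co-culture days, 1 member was called in D2_Co against D1_Co (7.14%), 4 in D3_Co against D2_Co (16% of all genes) and 4 in D3_Co against D1_Co (26.6%). These counts out of 10 are too small to be read as more than the share of all genes. The comparisons of D1_Co and D2_Co with D3_Control differ in day as well as culture, which cannot be told apart, and all 3 comparisons with D3_Control share its 2 libraries.

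**Figure D1:**
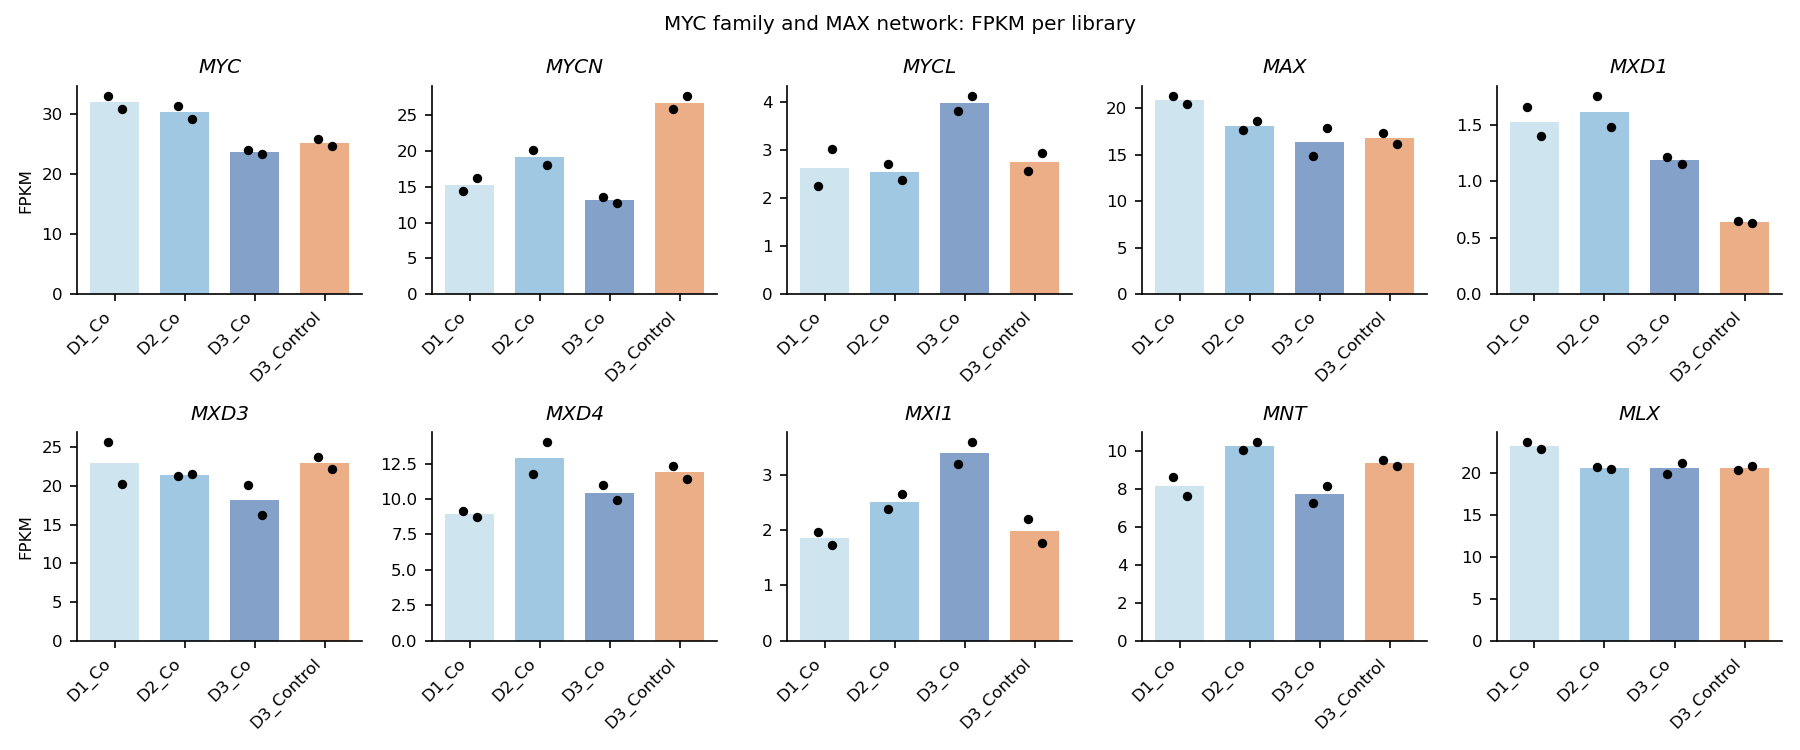
FPKM of the 10 genes (linear axis from 0, own scale per gene) in D1_Co, D2_Co, D3_Co and D3_Control; bars are means of n = 2 and points are libraries. MYCN is lowest in D3_Co (13.2 FPKM) and highest in D3_Control (26.7 FPKM), while MYC is highest in D1_Co (32.0 FPKM).

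MYCN, the family member best known from neural tissue, was the clearest difference of the network on day 3. It had 13.6 and 12.8 FPKM in the D3_Co libraries, against 25.8 and 27.7 FPKM in D3_Control. Both co-culture libraries lay far below both control libraries, and the groups did not overlap. MYCN fell by 0.97 on the log2(FPKM + 1) scale (SE 0.08, limma adjusted p = 0.000629), with means of 13.2 ± 0.604 FPKM in D3_Co and 26.7 ± 1.305 FPKM in D3_Control (SD). The difference stayed called in all 17 alternative settings, between -1.01 and -0.92. On day 1 MYCN had 14.3 and 16.2 FPKM, and on day 2 it had 20.2 and 18.1 FPKM. Every library of both days lay below both D3_Control libraries. MYCN fell in D1_Co against D3_Control by 0.77 (SE 0.08, adjusted p = 0.00102), a call kept in all 17 settings, and in D2_Co against D3_Control by 0.46 (SE 0.08, adjusted p = 0.00815). The call of day 2 was lost without D2_Co replicate 3 (adjusted p = 0.0505) and without D3_Control replicate 3 (0.0551).

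Within co-culture MYCN was highest on day 2. It fell in D3_Co against D2_Co by 0.50 (SE 0.08, adjusted p = 0.0126), and this call was lost without D2_Co replicate 1 (adjusted p = 0.0615) and without D3_Co replicate 2 (0.0579). D2_Co against D1_Co had a difference of 0.31 (adjusted p = 0.0704) and D3_Co against D1_Co of -0.20 (adjusted p = 0.123), and neither passed. The order of the group means was therefore D3_Control, D2_Co, D1_Co and D3_Co, and the libraries of neighbouring groups did not overlap, although the adjusted test did not pass between D2_Co and D1_Co or between D1_Co and D3_Co.

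MYC, the member most widely linked to growth, had 24.1 and 23.4 FPKM in D3_Co, against 25.8 and 24.8 FPKM in D3_Control. The D3_Co libraries lay below the D3_Control libraries by a small margin, and the difference of -0.09 (95% interval -0.23 to 0.05, adjusted p = 0.326) did not pass. On the earlier days MYC was higher, with 33.1 and 31.0 FPKM on day 1 and 31.5 and 29.2 FPKM on day 2. Libraries of days 1 and 2 overlapped each other and lay above all 4 day 3 libraries. MYC rose in D1_Co against D3_Control by 0.33 (SE 0.06, adjusted p = 0.00929) and in D2_Co against D3_Control by 0.25 (SE 0.06, adjusted p = 0.0237). The day 1 call was lost without D1_Co replicate 2 (adjusted p = 0.0572) and D3_Control replicate 3 (0.0640), and the day 2 call without D2_Co replicate 1 (0.110), D3_Control replicate 2 (0.0659) and D3_Control replicate 3 (0.116).

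Over the co-culture days MYC fell. D3_Co against D1_Co gave a difference of -0.42 (SE 0.06, adjusted p = 0.00426), called in all 17 settings between -0.47 and -0.37. D3_Co against D2_Co gave -0.34 (SE 0.06, adjusted p = 0.0150), which was lost without D2_Co replicate 1 (adjusted p = 0.0712), D3_Co replicate 1 (0.0583) or D3_Co replicate 2 (0.0662). D2_Co against D1_Co gave -0.08 (adjusted p = 0.470).

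MYCL, the third family member, was low in every library, with 3.81 and 4.12 FPKM in D3_Co, against 2.56 and 2.94 FPKM in D3_Control. The D3_Co libraries were the highest of all 8, and the groups did not overlap. The difference of 0.41 (95% interval 0.12 to 0.70, adjusted p = 0.0510) just missed the threshold, and it was called with median-of-ratios scaling (adjusted p = 0.0477), in a fit of the 4 libraries alone (0.0474), and without D1_Co replicate 2 (0.0323) or D1_Co replicate 3 (0.0328). MYCL had 2.24 and 3.02 FPKM on day 1 and 2.70 and 2.38 FPKM on day 2, so those groups overlapped D3_Control. It rose in D3_Co against D2_Co by 0.49 (SE 0.12, adjusted p = 0.0397) and in D3_Co against D1_Co by 0.46 (SE 0.12, adjusted p = 0.0331). The call against D2_Co was lost in each fit without a D2_Co, D3_Co or D3_Control library (adjusted p = 0.0565 to 0.162), with no filter (0.0853) and with the table as deposited (0.0868). The call against D1_Co was lost without D1_Co replicate 2 (0.140), D3_Co replicate 1 (0.0799) or D3_Co replicate 2 (0.133), and with no filter, quantile normalization, the table as deposited or the 4 libraries alone (0.0691 to 0.0805).

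The sum and the makeup of the family both differed between the day 3 groups. MYC, MYCN and MYCL together reached 41.5 and 40.3 FPKM in D3_Co, against 54.2 and 55.4 FPKM in D3_Control. MYCN made up 32.8% and 31.7% of that sum in D3_Co, against 47.6% and 49.95% in D3_Control. Its share was 28.9% and 32.3% on day 1 and 37.1% and 36.4% on day 2, so all 6 co-culture libraries lay below both control libraries. The ratio of MYCN to MYC was 0.566 and 0.546 in D3_Co, against 0.999 and 1.12 in D3_Control. These ratios of FPKM describe the libraries, since an exact two-sided permutation test of 2 against 2 cannot go below p = 0.333.

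**Figure D2:**
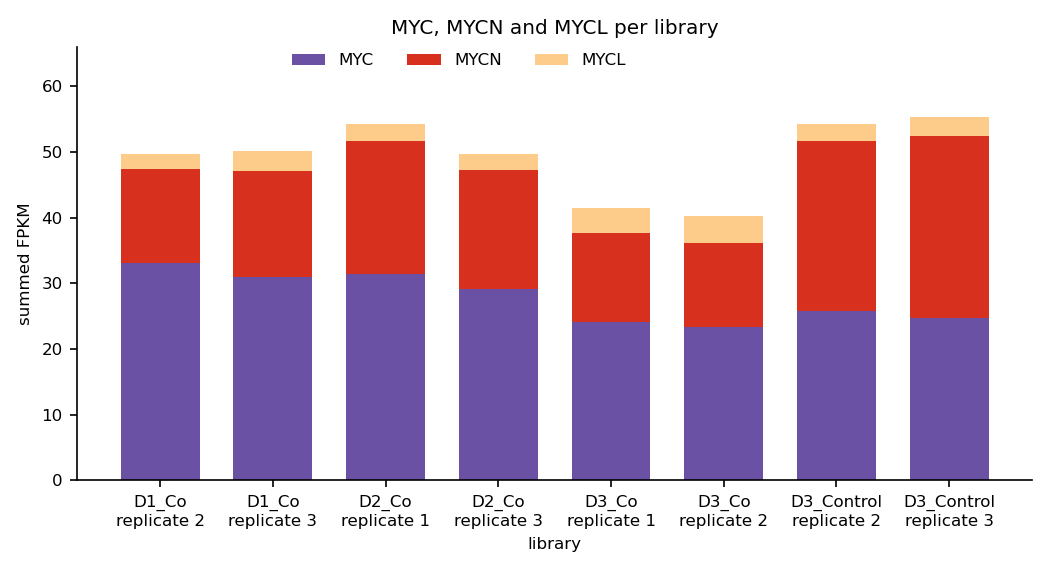
Stacked FPKM of MYC, MYCN and MYCL in each library (linear axis from 0), with D1_Co, D2_Co and D3_Co left of D3_Control. The MYCN segment is about as tall as the MYC segment in D3_Control (ratios 0.999 and 1.12) and shorter in the 6 co-culture libraries (ratios 0.434 to 0.640).

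MAX, the obligate partner of MYC proteins, had 14.8 and 17.8 FPKM in D3_Co, against 17.4 and 16.1 FPKM in D3_Control. The groups overlapped, and the difference was -0.04 (95% interval -0.25 to 0.17, adjusted p = 0.778). On day 1 MAX had 21.3 and 20.4 FPKM and on day 2 it had 17.6 and 18.6 FPKM. It rose in D1_Co against D3_Control by 0.30 (SE 0.09, adjusted p = 0.0487) and fell in D3_Co against D1_Co by 0.34 (SE 0.09, adjusted p = 0.0301). The first call was lost without any 1 of the D1_Co, D2_Co or D3_Control libraries (adjusted p = 0.0693 to 0.213), with quantile normalization (0.0511) and with no filter on low values (0.0910). The second was lost without D1_Co replicate 2 (0.12), D1_Co replicate 3 (0.0804) or D3_Co replicate 1 (0.109), with no filter (0.0575) and in a fit of the 4 libraries alone (0.0700). The row of MAX as deposited held other values in 6 libraries, and with these MAX was called lower in D3_Co against D3_Control (-0.22, adjusted p = 0.0323).

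MLX, which pairs with MondoA and ChREBP in place of MAX, had the smallest difference of the members on day 3. It had 20.0 and 21.3 FPKM in D3_Co, against 20.4 and 20.9 FPKM in D3_Control, and the D3_Control libraries lay between the D3_Co libraries. The difference was -0.0017 (95% interval -0.13 to 0.13, adjusted p = 0.987). D1_Co, with 23.7 and 22.9 FPKM, lay above all other libraries, but its difference of 0.17 against D3_Control (adjusted p = 0.0665) did not pass, and it passed with median-of-ratios scaling (adjusted p = 0.0325). Of the partners and relatives outside the 10 members, MGA and MLXIP were tested and MLXIPL was not. MGA had a difference of -0.17 (adjusted p = 0.339) and MLXIP of 0.13 (adjusted p = 0.466) in D3_Co against D3_Control. MLXIPL had 1.2 and 1.6 FPKM in D3_Co, against 0.378 and 0.627 FPKM in D3_Control.

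Among the repressor-type partners, MXI1 and the low MXD1, which was under 1 FPKM in D3_Control, rose on day 3 and MXD3, MXD4 and MNT had differences below 0 that did not pass. MXI1, also called MXD2, had 3.18 and 3.58 FPKM in D3_Co, against 2.20 and 1.76 FPKM in D3_Control. The D3_Co libraries were the highest of all 8 and did not overlap the controls. MXI1 rose by 0.56 (SE 0.11, adjusted p = 0.0119), a call lost without D3_Co replicate 2 (adjusted p = 0.0666) and without D3_Control replicate 3 (0.0657). It rose in D3_Co against D1_Co by 0.62 (SE 0.11, adjusted p = 0.00809), called in all 16 settings that could test it, where day 1 had 1.97 and 1.72 FPKM and day 2 had 2.37 and 2.65 FPKM. The row of MXI1 was not settled, and its value had an alternative in 2 libraries. The next best order of rows would give 0.539 FPKM in D3_Control replicate 3 and 0.139 FPKM in D1_Co replicate 3. The D1_Co value enters the difference of D3_Co against D1_Co.

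MXD1, an early marker of differentiating cells in blood and skin, was the lowest member. It had 1.22 and 1.15 FPKM in D3_Co, against 0.646 and 0.631 FPKM in D3_Control. All 6 co-culture libraries lay above both control libraries, with 1.66 and 1.40 FPKM on day 1 and 1.75 and 1.48 FPKM on day 2. MXD1 passed the filter of 1 FPKM only through the co-culture libraries, so its place among the tested genes depended on the groups where it was high. With no filter its 3 differences to D3_Control kept their calls (adjusted p = 0.0437 on day 3, 0.0133 on day 1 and 0.0104 on day 2). MXD1 rose in D3_Co against D3_Control by 0.41 (SE 0.10, adjusted p = 0.0280), in D1_Co by 0.62 (SE 0.10, adjusted p = 0.00631) and in D2_Co by 0.67 (SE 0.10, adjusted p = 0.00460). The log2(FPKM + 1) scale understates such low genes, and the ratio of mean FPKM was 1.85 on day 3. The day 3 call was lost without either D3_Co library or either D3_Control library (adjusted p = 0.0847 to 0.106), in a fit of the 4 libraries alone (0.0552) and with quantile normalization (0.21, adjusted p = 0.205). The values also rest on the return to rows: the MXD1 row as deposited held 4.10 FPKM in D3_Co replicate 2 and 3.47 and 3.65 FPKM in D3_Control, which turned the difference to -0.44 (adjusted p = 0.507).

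MXD3, a repressor-type partner found in dividing cells, was the most abundant of its arm. It had 20.1 and 16.3 FPKM in D3_Co, against 23.7 and 22.2 FPKM in D3_Control. The D3_Co libraries were the lowest of all 8, but they differed from each other by more than the control libraries did, and the difference of -0.33 (95% interval -0.62 to -0.03, adjusted p = 0.101) did not pass. MXD3 had 25.6 and 20.2 FPKM on day 1 and 21.3 and 21.6 FPKM on day 2, and no comparison called it with all 8 libraries. Without D1_Co replicate 3 it was called lower in D3_Co against D1_Co (-0.48, adjusted p = 0.0484).

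MXD4, a member of the same arm, had 11.0 and 9.90 FPKM in D3_Co, against 12.3 and 11.4 FPKM in D3_Control, and its difference of -0.17 (adjusted p = 0.220) did not pass. It was lowest on day 1, with 9.13 and 8.74 FPKM, and highest on day 2, with 11.8 and 14.0 FPKM. MXD4 fell in D1_Co against D3_Control by 0.37 (SE 0.09, adjusted p = 0.0288), a call lost without either D1_Co library or either D3_Control library (adjusted p = 0.0759 to 0.128), with no filter (0.0589) and with the table as deposited (0.0701). It rose in D2_Co against D1_Co by 0.48 (SE 0.09, adjusted p = 0.0332), the only member called between those days, and the call was lost without any 1 of the D1_Co, D2_Co or D3_Control libraries (adjusted p = 0.0548 to 0.129), with no filter (0.0691), with the table as deposited (0.0676) and in a fit of the 4 libraries alone (0.0775).

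MNT, the broadly expressed antagonist of MYC, had 7.27 and 8.15 FPKM in D3_Co, against 9.52 and 9.18 FPKM in D3_Control. The groups did not overlap, and the difference of -0.25 (95% interval -0.44 to -0.06, adjusted p = 0.0629) did not pass. It passed with quantile normalization (-0.27, adjusted p = 0.0495). MNT had 8.62 and 7.63 FPKM on day 1 and 10.1 and 10.4 FPKM on day 2. It fell in D3_Co against D2_Co by 0.37 (SE 0.08, adjusted p = 0.0275), a call lost without either D2_Co or either D3_Co library (adjusted p = 0.0520 to 0.118), with the table as deposited (0.0525) and in a fit of the 4 libraries alone (0.0557).

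Summed over MXD1, MXD3, MXD4, MXI1 and MNT, the repressor-type arm had 42.7 and 39.1 FPKM in D3_Co, against 48.4 and 45.2 FPKM in D3_Control. The ratio of the MYC family sum to this sum was 0.972 and 1.03 in D3_Co, against 1.12 and 1.23 in D3_Control. On day 1 the ratio was 1.06 and 1.26 and on day 2 it was 1.15 and 0.991, so the groups of days 1 and 2 overlapped D3_Control in this ratio and D3_Co did not. These are ratios of transcript levels, not of protein, and were not tested.

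**Figure D3:**
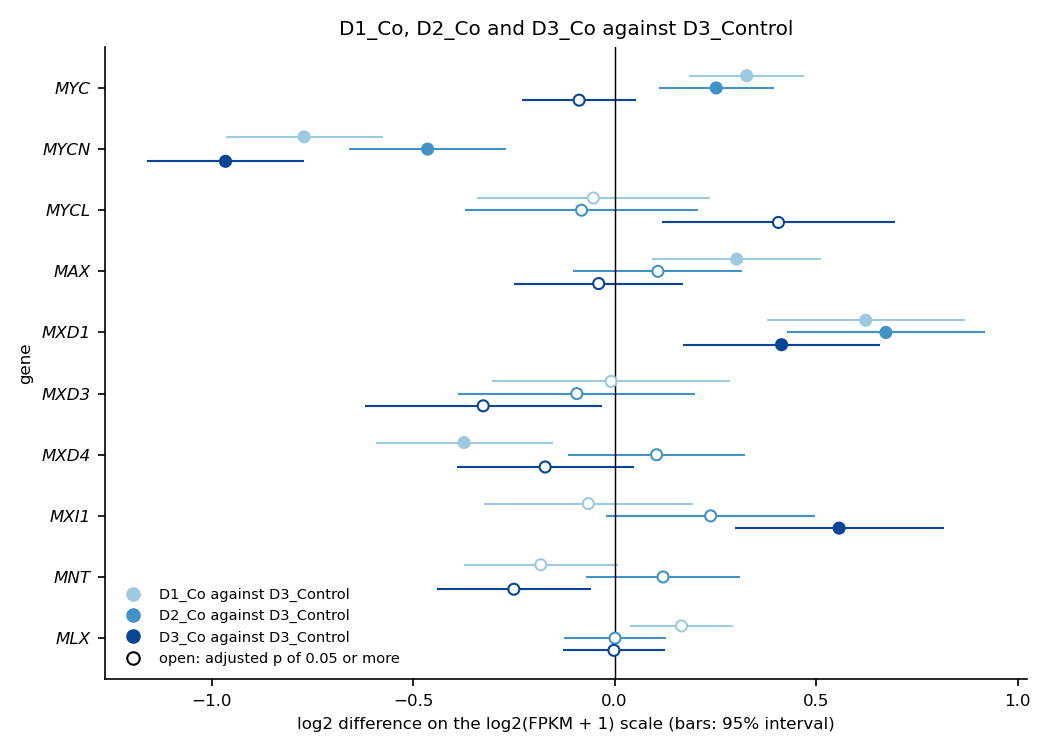
Differences of D1_Co, D2_Co and D3_Co against D3_Control on the log2(FPKM + 1) scale for the 10 genes, with 95% intervals; filled points have limma adjusted p under 0.05. MYCN lies left of 0 on all 3 days (-0.77, -0.46 and -0.97) and MXD1 right of 0 (0.62, 0.67 and 0.41), while MYC is filled on days 1 and 2 only.

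Cofactors of the network were read from lists written with earlier results of these data known. Of 19 coactivators of MYC, 0 rose and 6 fell in D3_Co against D3_Control, with a median of -0.08 against 0.00 over all genes, of which 13.5% rose and 10.8% fell. SKP2, a ubiquitin ligase subunit that acts with MYC, had 31.6 ± 0.259 FPKM in D3_Co and 42.1 ± 1.16 FPKM in D3_Control (-0.40, adjusted p = 0.00794). KAT2A, a histone acetyltransferase (-0.40), HCFC1, a host cell factor that MYC binds (-0.32), and WDR5, which helps MYC to stay on chromatin (-0.24), also fell. 6 became 3 without D3_Co replicate 1 or D3_Control replicate 3 and 2 without D3_Control replicate 2, SKP2 lost its call without D3_Control replicate 2 (adjusted p = 0.0503), and WDR5 in each of the 4 fits without a day 3 library. Of 15 corepressors of MXD and MNT, 1 rose and 2 fell (median -0.01), a number called near the 24.3% of all genes. SIN3B, a scaffold that MXD proteins bind, had a difference of 0.22 (adjusted p = 0.0228), and BRMS1 (-0.32) and SAP18 (-0.31), both subunits of the SIN3 complex, fell. All 3 lost their calls without 1 or more of the day 3 libraries, with adjusted p of 0.0621 to 0.102 for BRMS1, 0.0724 to 0.137 for SAP18 and 0.0749 to 0.110 for SIN3B. In a fit of the 4 libraries alone SAP18 (0.0510) and SIN3B (0.0573) lost theirs too.

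Of 24 tested genes of MYC protein turnover, 1 rose and 2 fell in D3_Co against D3_Control (median -0.08), where 13.5% of all genes rose and 10.8% fell. The 1 that rose (0.16, adjusted p = 0.0499) stood on a row that was not settled and is therefore not named. The 2 that fell were USP36, a nucleolar deubiquitinase that stabilises MYC (-0.27), and USP22, a deubiquitinase of the SAGA complex (-0.27), and each lost its call in 3 of the 4 fits without a day 3 library. In the fits without a D1_Co library 0 genes of the list rose and 4 fell. FBXL14, a ubiquitin ligase subunit singled out after its values were seen, had the widest difference of that list (-1.62, adjusted p = 0.0759), with 1.14 and 1.35 FPKM in D3_Co, against 5.05 and 6.82 FPKM in D3_Control, and its D1_Co libraries spanned 1.64 to 6.76 FPKM. Of 9 tested genes of the complex that MGA forms with Polycomb proteins, 0 rose and 3 fell (median -0.19), where 13.5% of all genes rose and 10.8% fell. L3MBTL2, a reader of that complex, had 10.9 ± 0.673 FPKM in D3_Co and 16.0 ± 0.284 FPKM in D3_Control (-0.52, adjusted p = 0.00354). CBX3 (-0.27) and TFDP1 (-0.25) fell, and without D3_Control replicate 2 only 1 of the 3 was called. CBX3 lost its call without any 1 of the day 3 libraries (adjusted p = 0.0797 to 0.116) and TFDP1 without D3_Co replicate 2 (0.0748) or D3_Control replicate 2 (0.0887).

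Growth and metabolic genes that MYC proteins are known to activate moved in both directions on day 3. Of 42 tested, 6 rose and 15 fell in D3_Co against D3_Control, with a median of -0.14, where 13.5% of all genes rose and 10.8% fell. UBTF, a factor of ribosomal RNA transcription, had 23.0 ± 2.58 FPKM in D3_Co and 41.1 ± 3.16 FPKM in D3_Control (-0.81, adjusted p = 0.00143). ODC1, the first enzyme of polyamine synthesis, had 131 ± 7.94 FPKM in D3_Co and 194 ± 9.48 FPKM in D3_Control (-0.57), and RRS1, a factor of ribosome assembly, fell by 0.54. MTHFD2, a mitochondrial enzyme of one-carbon metabolism, went the other way, with 81.9 ± 1.19 FPKM in D3_Co and 52.1 ± 2.70 FPKM in D3_Control (0.65, adjusted p = 0.000594). Among the 8317 genes with a mean of at least 5 FPKM the balance of all genes was the other way, with 1100 higher and 1267 lower, and there 6 of 41 genes of the list rose and 17 fell. Without D3_Control replicate 2 fewer genes of the list fell, and over all genes fewer fell as well. In the fits that lacked D3_Co replicate 1 or D3_Control replicate 3, fewer genes rose, both in the list and over all genes. With the table as deposited 2 genes of the list rose, where 1236 of 13630 genes rose. The fibroblast marker sums given above differed between the same groups, and their part in these counts was not tested.

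On the other days the same list gave other counts. In D1_Co against D3_Control 8 rose and 3 fell (median -0.01), in a comparison where 10.5% of all genes rose and 12.2% fell. The split was 10 and 1 with median-of-ratios scaling, where 1532 of all 12449 genes rose and 1164 fell. It was 6 and 6 with quantile normalization, where 1335 of all genes rose and 1298 fell. The fits without D1_Co replicate 2 or either D3_Control library gave fewer higher and fewer lower genes, both in the list and over all genes. In D2_Co against D3_Control 5 rose and 19 fell (median -0.20), where 12.4% of all genes rose and 12.6% fell. Fewer genes of the list rose without D2_Co replicate 1 or D3_Control replicate 3. Fewer fell without D2_Co replicate 3 or either D3_Control library. Over all genes, fewer rose and fewer fell in each of these fits. In D3_Co against D1_Co 1 rose and 22 fell (median -0.19), where 16.1% of all genes rose and 10.5% fell. Fewer genes of the list fell without D1_Co replicate 3 or D3_Co replicate 2, and the 1 that rose lost its call without D3_Co replicate 1. Over all genes, fewer rose and fewer fell in each of these fits.

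Of 13 tested genes that MYC is known to repress, 7 rose and 0 fell in D3_Co against D3_Control, with a median of 0.27, where 13.5% of all genes rose and 10.8% fell. NDRG1, a stress and differentiation gene, had 9.09 ± 0.0285 FPKM in D3_Co and 2.75 ± 1.18 FPKM in D3_Control (1.47, SE 0.19, adjusted p = 0.00258). GADD45A, a DNA damage and growth arrest gene, had 21.8 ± 0.396 FPKM in D3_Co and 9.72 ± 0.493 FPKM in D3_Control (1.09). CDKN2B, an inhibitor of cyclin-dependent kinases (0.81), and CEBPD, a C/EBP transcription factor (0.67), rose as well. CDKN2B averaged 1.38 FPKM in D3_Co and 0.360 FPKM in D3_Control, so it passed the filter only through the co-culture libraries, and with no filter it kept its call (adjusted p = 0.0168). Leaving it aside, 6 of 12 rose. Several of these genes also respond to stress and to p53, which was not tested apart from MYC. The rows of GADD45A, CDKN2B and CEBPD moved, and the rows of 2 of the 13 genes were not settled. With the table as deposited 2 genes of the list rose and 1 fell, where 1236 of 13630 genes rose and 1048 fell. In D1_Co against D3_Control 5 rose and 2 fell, where 10.5% of all genes rose and 12.2% fell. In D2_Co against D3_Control 8 rose and 0 fell, where 12.4% of all genes rose and 12.6% fell. The 5 became 2 without D1_Co replicate 2 and 3 without either D3_Control library. The 2 became 1 without either D1_Co or either D3_Control library, and the 8 became 5 without either D2_Co library or D3_Control replicate 3.

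Of 11 tested targets of MLX and its glucose-responsive partners, 2 rose and 2 fell on day 3 (median -0.01), where 13.5% of all genes rose and 10.8% fell. Of the 2 that rose, 1 stood on a row that was not settled and is not named. KLF10, a zinc finger repressor, rose by 0.43, and ARRDC3, an arrestin-domain protein, had 3.75 ± 0.0404 FPKM in D3_Co and 5.84 ± 0.281 FPKM in D3_Control (-0.53, adjusted p = 0.00393). HK2, a hexokinase, had a difference of -0.27 (adjusted p = 0.0277), which was lost without D3_Co replicate 1 (adjusted p = 0.114), D3_Co replicate 2 (0.0741) or D3_Control replicate 2 (0.137) and in a fit of the 4 libraries alone (0.0552). The 2 higher genes became 1 without D3_Co replicate 1 or D3_Control replicate 3.

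**Figure D4:**
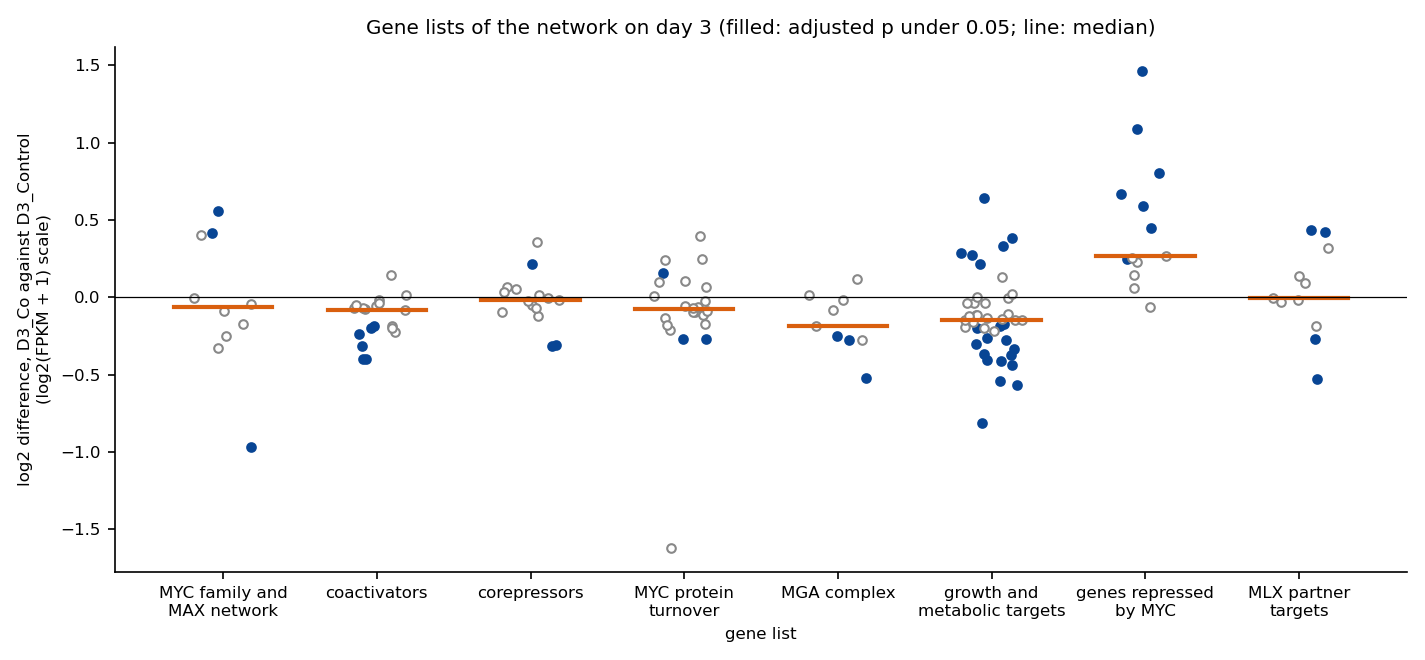
Differences of D3_Co against D3_Control on the log2(FPKM + 1) scale for tested genes of 8 lists; each point is a gene, filled where limma adjusted p is under 0.05, and lines are medians. Medians lie at -0.14 for growth and metabolic targets and 0.27 for genes repressed by MYC.

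Markers of other states moved between the same groups, where 13.5% of all genes rose and 10.8% fell. Of 16 pluripotent markers 0 rose and 10 fell on day 3 (median -0.29), among them OTX2 (15.1 FPKM in D3_Co, 31.2 FPKM in D3_Control), DNMT3B (-0.67), TERF1 (-0.60) and TDGF1 (-0.47). Of 9 tested fibroblast markers 5 rose and 0 fell (median 0.53), among them TWIST1 (1.22), S100A4 (0.95), COL1A2 (0.94) and VIM (0.87), and 7 of the 16 were under 1 FPKM in each day 3 library. Of 6 tested germ layer markers 1 rose, NES (0.48), and 1 fell, FOXA2 (-0.84). The rows of 2 of the 6 were not settled. In D1_Co against D3_Control 4 of the 6 rose and 1 fell (median 0.54), where 10.5% of all genes rose and 12.2% fell. In D2_Co against D3_Control 5 rose and 0 fell (median 0.83), where 12.4% of all genes rose and 12.6% fell. In D3_Co against D2_Co 0 rose and 5 fell (median -0.63). That comparison called 16% of all genes, 1087 higher and 899 lower of 12449. MYC also fell there, and a link was not tested. The 5 that rose in D2_Co became 3 without D2_Co replicate 3 or D3_Control replicate 2. EOMES, GATA3 and FOXA2 averaged under 1 FPKM in 1 or more groups and passed the filter through the others, so these counts support nothing by themselves. Exons of KAT2A, WDR5, USP22, L3MBTL2, CBX3, UBTF, RRS1, MTHFD2, ARRDC3, HK2, TDGF1, TWIST1, VIM and FOXA2 overlap other annotated genes. With the table as deposited, calls were lost for SKP2, BRMS1, SAP18, USP22, RRS1, GADD45A, CEBPD, HK2 and NES, and CBX3 turned to 0.64, CDKN2B to -0.40 and TWIST1 to -1.23, none of them called. The part of these shifts in the values of the MYC network was not tested.

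Across the 8 libraries, the genes whose log2(FPKM + 1) followed MYC most closely among 8024 compared were FOXM1 (Pearson r = 0.987), PLOD3 (0.985), FAM174B (0.982), RIOK3 (0.978) and AMOTL2 (0.977). FOXM1, a transcription factor of dividing cells, averaged 112, 109 and 95.1 FPKM on co-culture days 1, 2 and 3 and 100.1 FPKM in D3_Control. For MYCN they were UPF1 (0.991), FOXD3 (0.982), NFYC (0.977), LINC00665 (0.976) and MCM2 (0.976). FOXD3, a factor of primed pluripotent cells, averaged 3.67, 5.195 and 3.09 FPKM on days 1, 2 and 3 and 11.9 FPKM in D3_Control. It reached the required mean of 5 FPKM through D3_Control, where MYCN was also highest, so its place in this ranking depended on that group. These values describe 8 libraries that fall into 4 groups of 2, and were picked as the highest of many. Exons of FOXM1, PLOD3, FAM174B, AMOTL2, FOXD3, NFYC and MCM2 overlap other annotated genes.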

How the data were processed

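The deposited data are 1 table with FPKM per gene in 8 libraries. Per the submitters' processing notes, HISAT2 2.1.0, StringTie 1.3.3b and GRCh38.p12 were used. FPKM values are not counts, so no count test was run, and read depth is unknown.

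Many deposited values stood beside another gene. They fitted a history of text sorting in which 3394 gene numbers can trade places, and an exact search took the allowed order closest to D1_Co replicate 2. Differences on moved rows can thereby be understated. Of the tested rows, 7963 stayed in place, 4486 moved and 524 were not settled. Of 70 member values searched, 50 had 1 allowed value and 15 moved. Among 13104 rows that averaged 1 FPKM or more, 655, holding 3.93% to 4.43% of FPKM, were left out because the name did not belong to the gene number.

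Values as log2(FPKM + 1) were fitted with limma 3.58.1 (R 4.3.3), with the 8 libraries in 1 model of 4 groups, an intensity trend, and Benjamini-Hochberg adjustment over 12449 genes. Search and fit were tested on simulated data. For the search, the simulated libraries were scrambled by the same assumed history. That test therefore cannot show that the history holds for the deposited values. Members and lists were chosen with earlier results of these data known. Up to 4 called genes per list, the largest on settled rows in D3_Co against D3_Control, are named, and 5 genes most like MYC and MYCN with a mean of at least 5 FPKM. Alternatives were another pseudocount, filters, scalings, the table as deposited, 4 libraries alone, a replicate block and leaving out each library. Taking the mean of the other libraries as the reference for the rows was chosen after seeing the data.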

Additional observations from a re-analysis of the deposited data

Results flagged for a closer look

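The members below differed between days of co-culture by a test of the difference itself (limma, adjusted p under 0.05), where each day has its own difference to D3_Control. No explanation was weighed. MXD4 differed by 0.48 in D2_Co against D1_Co. In D3_Co against D2_Co, MYCL differed by 0.49, MYC by -0.34, MNT by -0.37 and MYCN by -0.50. In D3_Co against D1_Co, MXI1 differed by 0.62, MYCL by 0.46, MAX by -0.34 and MYC by -0.42. Only the calls of MXI1 and MYC in D3_Co against D1_Co were kept in every alternative setting that could test them. Each of the other calls was lost in some settings, and the row of MXI1 was not settled.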

How the results depend on the processing

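Over all members, comparisons and alternatives, 883 values kept their direction and side of the threshold, 74 lost and 11 gained a call, and 34 changed sign. With the table as deposited, MXD1 turned to -0.44, -0.85 and -0.77 in D3_Co, D1_Co and D2_Co against D3_Control and to 0.33 and 0.42 in D3_Co against D2_Co and D1_Co. MLX turned to 2.19 in D3_Co and MAX to -0.032 in D2_Co against D3_Control, and 3 members were then called in D1_Co against D3_Control and 2 in D3_Co against D2_Co. Quantile normalization turned MLX to 0.0099 in D3_Co and MXD3 to 0.014 in D1_Co against D3_Control and MXD1 to -0.052 in D2_Co against D1_Co. It called 1 member higher and 2 lower in D3_Co against D3_Control, and 1 and 3 in D3_Co against D1_Co. Median-of-ratios scaling turned MXD3 to 0.030 in D1_Co against D3_Control, and the calls over all genes to 1532 higher and 1164 lower there, 1676 and 1123 in D2_Co against D3_Control, 819 and 1081 in D3_Co against D2_Co and 1703 and 1647 in D3_Co against D1_Co, where quantile normalization gave 1506 and 1386. A mean of at least 5 FPKM left 1 member called in D3_Co against D3_Control and 2 in D3_Co against D1_Co, since fewer members were tested. No filter on low values left 3 members called in D1_Co against D3_Control, 0 in D2_Co against D1_Co (344 genes) and 2 in D3_Co against D1_Co. The 4 libraries of a comparison alone left 0 members and 153 genes in D2_Co against D1_Co, 1038 genes in D3_Co against D2_Co and 2 members in D3_Co against D1_Co. The cause of other changes was not tested.

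Replicate numbers match in full only between D1_Co and D3_Control, where deviations of libraries with the same number correlated at -0.0070. That value gave no sign of pairing by number between these groups. The other groups were not checked, so a batch shared by number cannot be told from these values. With a replicate block, 1823 genes were called in D3_Co against D3_Control, where MAX was 0.015 and MLX 0.0083, 110 genes and 0 members in D2_Co against D1_Co, 721 genes in D3_Co against D2_Co and 1943 in D3_Co against D1_Co. The block also ended the calls of MXD1 (adjusted p = 0.119), BRMS1 (0.0702), SIN3B (0.0722) and USP36 (0.0577) in D3_Co against D3_Control, of MXD4 in D1_Co against D3_Control (0.0691) and D2_Co against D1_Co (0.109), and of MYCL in D3_Co against D2_Co (0.0762) and D1_Co (0.0792).

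Without 1 library, genes called ranged from 1602 to 2848 in D3_Co, 1357 to 2614 in D1_Co and 1493 to 2900 in D2_Co against D3_Control, from 67 to 665 in D2_Co against D1_Co, 478 to 1683 in D3_Co against D2_Co and 1676 to 3012 in D3_Co against D1_Co. Members called ranged from 1 to 4, 2 to 5, 1 to 3, 0 to 1, 0 to 4 and 2 to 4 in the same order. Values that changed sign then ranged, against D3_Control, from -0.16 to 0.086 for MAX and -0.046 to 0.043 for MLX in D3_Co, from -0.21 to 0.10 for MYCL, -0.17 to 0.15 for MXD3 and -0.17 to 0.042 for MXI1 in D1_Co, and from -0.013 to 0.015 for MLX and -0.012 to 0.22 for MXD4 in D2_Co. In D2_Co against D1_Co they ranged from -0.25 to 0.077 for MXD3, -0.027 to 0.13 for MXD1 and -0.18 to 0.13 for MYCL, in D3_Co against D2_Co from -0.047 to 0.042 for MLX, and in D3_Co against D1_Co from -0.15 to 0.012 for MNT.

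The number of reads behind each FPKM is unknown, which limits what the lowest members, MXD1, MXI1 and MYCL, can show.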
